A study of Mus musculus with 30 samples.

Results

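The response of control βTC3 cells to activin B was measured in 6 of the 30 poly(A) RNA libraries of the series: 3 from cells given activin B together with doxycycline (DOX) and 3 from cells given DOX alone. These were all libraries of the line with the control piggyBac construct (plasmid PB-33), chosen by their labels, and all were in batch 1. βTC3 is a mouse insulinoma line that makes insulin and carries the SV40 large T antigen under the insulin promoter. Both groups had DOX at 1 µg/ml for 24 hours, and the first had activin B at 50 ng/ml for 24 hours as well, so that DOX was shared and cells without DOX were not part of the comparison. The cells of both groups were plated in triplicate wells of 1 line, so that the p-values below rest on the spread between wells, which may be technical. The other 24 libraries came from lines with ALK7, a dominant-negative ALK7, or hairpins against ALK7, and served to estimate the spread of the counts.

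Activin B is a dimeric ligand of the TGF-β family. It binds the type II receptors encoded by Acvr2a and Acvr2b, which then activate a type I receptor, ALK4 (Acvr1b) or ALK7 (Acvr1c). The active receptor phosphorylates SMAD2 and SMAD3, which join SMAD4 and act on genes in the nucleus, and inhibitors such as SMAD7 and SKIL, made in response, dampen the signal. ALK7 is made in pancreatic islets and fat, and activin signalling is known for effects on insulin secretion and on the growth and survival of beta cells.

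The library totals were 23204802 to 34740789 counts with activin B and 21065952 to 28723549 counts with DOX alone, and 15627 of 39017 genes passed the low-count filter. Levels are given as counts per 1000000 counts of the library (CPM), scaled by TMM normalization, as the mean ± SD of 3 libraries, and changes as log2 fold changes (activin B over DOX alone) ± SE. A gene was called at an adjusted p under 0.05 (edgeR quasi-likelihood test, Benjamini-Hochberg over all genes tested). On a principal component analysis of the 6 libraries the first component, with 46.2% of the variance, separated the groups, with activin B at 21.5 to 39.2 and DOX alone at -32.9 to -23.3. On the second component (21.9% of the variance) the activin B libraries were spread widest, with replicates 1, 2 and 3 at -30.97, 28.44 and -9.897, and those with DOX alone at -12.23, 17.89 and 6.771. Activin B replicate 2 held fewer reads on GC-rich genes. The Spearman correlation of its deviations with gene GC content was -0.674, against 0.612 and 0.429 in the other activin B libraries and -0.355 to 0.397 with DOX alone. All 10 beta cell markers were counted, with a summed level of 14500 to 18200 CPM with activin B and 21300 to 22500 CPM with DOX alone. Of the markers of other islet hormone cells Irx1 had no counts, and 8 of 15 acinar markers were at 0. The summed duct markers were higher with activin B (42.4 to 46.2 against 15.3 to 17.1 CPM) mainly through the keratin gene Krt7 (39.2 against 11.3 CPM). The duct chloride channel gene Cftr fell (-0.86 ± 0.18, adjusted p = 9.95e-04, 1.01 against 1.82 CPM), while Sox9 and Krt19 had 2 and 4 counts in the 6 libraries together. Stromal, endothelial and immune markers summed to at most 13.1 CPM in any library.

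Activin B moved 20.3% of the genes tested. With the 6 control libraries fitted alone, fewer were called, 1734 of 14565. In the fit over all 30 libraries 3180 genes were called, 1671 higher (10.7%) and 1509 lower (9.66%), and 328 rose at least 2-fold (2.1% of genes tested) while 248 fell at least 2-fold (1.59%). Most changes were small, with a median log2 fold change of 0.443 among genes called higher and -0.468 among genes called lower. At the far end, 39 genes rose and 9 fell at least 8-fold. In 32.1% of all genes tested the activin B libraries did not overlap with the DOX libraries, and of the calls 1571 higher and 1445 lower were without overlap. Summed over genes, those called higher gained 38200 CPM and those called lower had a summed change of -45600 CPM. Without activin B replicate 2, 1474 of the same 15627 genes (9.43%) were called higher and 1149 (7.35%) lower. In each of 18 other ways of fitting the data, 832 of the higher and 677 of the lower genes were called in the same direction. Since these are bulk counts, fewer cells of a type and less RNA per cell cannot be told apart.

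**Figure D1:**
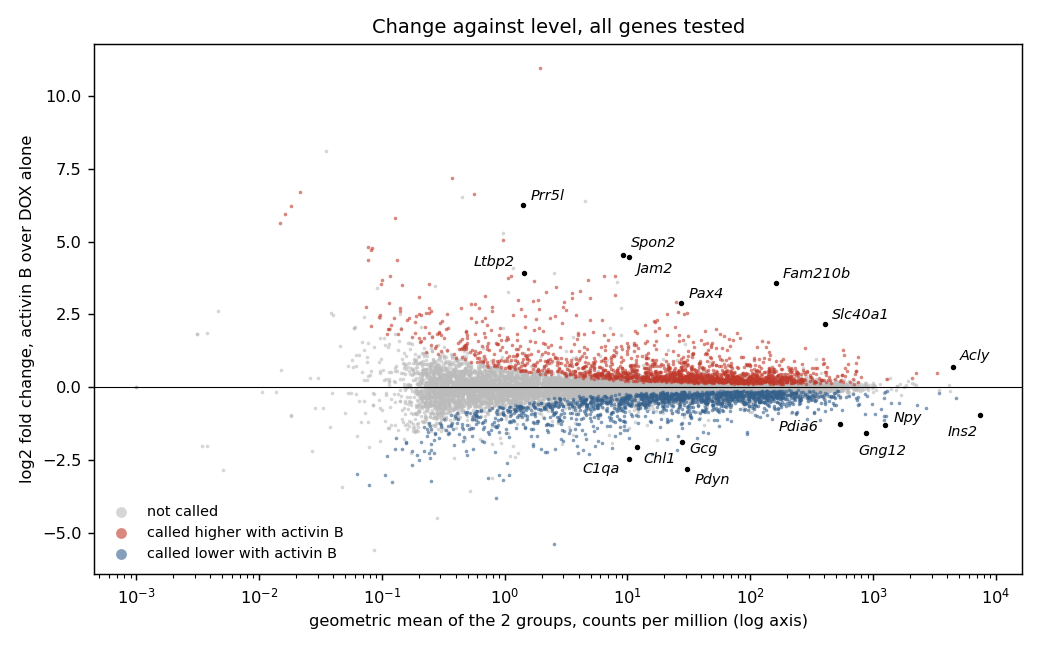
Log2 fold change of activin B over DOX alone (vertical axis) against the geometric mean of the group means in CPM (horizontal log axis, means under 0.001 CPM set to 0.001), 1 point per gene tested; red points were called higher, blue points lower, grey points were not called. Named genes lie at both ends of the level scale, from Prr5l at 0.159 CPM with DOX alone to Ins2 at 10310 CPM.

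The genes of the activin pathway itself did not move together. Acvr1c (chromosome 2, 58267453 to 58357895, minus strand of mm10), which encodes the type I receptor ALK7, had 96.95, 109.9 and 95.2 CPM with activin B, against 167, 158 and 170.3 CPM with DOX alone. It fell by 0.71 ± 0.10 (adjusted p = 1.14e-05), and its groups did not overlap. No call was made for Acvr1b (0.18 ± 0.084, adjusted p = 0.158), Acvr2a (0.15 ± 0.092, adjusted p = 0.278) or Acvr2b (-0.16 ± 0.25, adjusted p = 0.735), which encode the other type I receptor and the type II receptors of activin. Smad3 (chromosome 9, 63646767 to 63757994, minus strand), a signal transducer, had 6.8, 5.49 and 6.3 CPM with activin B, against 14.2, 14.2 and 12.8 CPM with DOX alone, and fell by 1.14 ± 0.088 (adjusted p = 2.94e-10). Smad2 (0.053 ± 0.046, adjusted p = 0.479) and Smad4 (0.091 ± 0.041, adjusted p = 0.129) were not called, so that among the activin SMADs Smad3 alone was called. On the BMP side of the family the type I receptor genes Bmpr1a (0.35 ± 0.079) and Acvrl1 (1.22 ± 0.22) and the transducer Smad5 (0.36 ± 0.069) rose. Over the receptor list 4 rose and 1 fell of 13 tested, beside 10.7% and 9.66% of all genes. The median of the list was 0.12, against a median of -0.00217 over all genes tested.

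Several inhibitors of the pathway rose. Of 16 tested SMAD inhibitors, corepressors and ligand antagonists 7 rose, 1 fell and 8 were not called (median 0.188). Over all genes 10.7% rose and 9.66% fell. The same 7 and 1 were called without activin B replicate 2. Smad7, the inhibitory SMAD that blocks type I receptors, had 15.3, 12.04 and 13.9 CPM with activin B, against 3.17, 2.3 and 2.96 CPM with DOX alone. Skil, which encodes a corepressor that binds SMADs on DNA, had 105, 111 and 103 CPM with activin B, against 28.4, 29.3 and 31.4 CPM with DOX alone. Pmepa1, whose membrane protein keeps SMAD2 and SMAD3 from the receptor, had 83.5, 64.7 and 73.3 CPM with activin B, against 14.9, 10.2 and 13.4 CPM with DOX alone. In each of these genes the lowest activin B library lay above the highest DOX library, with rises of 2.30 ± 0.12, 1.84 ± 0.076 and 2.53 ± 0.16 on the log2 scale (adjusted p 2.83e-13, 2.76e-15 and 8.89e-12). Less prominent members moved the same way. Ldlrad4, a relative of Pmepa1 that also sequesters SMADs, had 14.4 ± 1.16 CPM with activin B and 4.05 ± 0.524 CPM with DOX alone (log2 fold change 1.84 ± 0.12), and the corepressor Tgif1 had 10.2 ± 1.12 CPM with activin B and 4.24 ± 0.44 CPM with DOX alone (1.27 ± 0.11). The pseudoreceptor Bambi rose by 1.76 ± 0.06 to 112 CPM, and the BMP antagonist Grem1 by 1.71 ± 0.28 at a low level (1.89 against 0.569 CPM). Bmper, which binds BMPs, fell by 1.25 ± 0.32 (0.381 against 0.882 CPM).

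Of the 11 tested genes of the ligand list 2 rose and 0 fell, beside 10.7% and 9.66% of all genes. Those that rose were Tgfb1 (2.63 ± 0.29, 1.96 against 0.32 CPM) and Gdf11 (0.33 ± 0.081, 35.8 against 28.5 CPM). The list left out Gdf2, another ligand gene of the family, which was called lower (log2 fold change -3.36) and is named after its values were seen. Inhbb, whose product makes activin B itself, was not tested, with 0 counts in each activin B library and 3, 0 and 2 counts with DOX alone. Among 9 genes for latent TGF-β binding and matrix carriers 3 rose and 0 fell. The latent TGF-β binding protein gene Ltbp2 had 6.14, 5.61 and 5.13 CPM with activin B, against 0.289, 0.383 and 0.423 CPM with DOX alone, the fibrillin gene Fbn2 had 0.765 ± 0.201 CPM with activin B and 0.288 ± 0.00857 CPM with DOX alone, and Spon2, which encodes a secreted matrix protein, had 53.5, 36.4 and 44.4 CPM with activin B, against 2.16, 1.88 and 1.69 CPM with DOX alone. All 3 were low or nearly absent with DOX alone.

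Of the known SMAD2/3 targets outside the pathway 12 rose and 5 fell of 26 tested, beside 10.7% and 9.66% of all genes. Of these, 9 and 4 were also called without activin B replicate 2. Bmf (chromosome 2, 118528757 to 118549687, minus strand), which encodes a proapoptotic BH3-only protein, had 12.8, 9.73 and 10.1 CPM with activin B, against 1.3, 0.941 and 1.27 CPM with DOX alone, a 9.37-fold rise (3.23 ± 0.15, adjusted p = 2.61e-14). The small GTPase gene Rhob followed with 93.2 ± 9.53 CPM with activin B and 37.1 ± 2.996 CPM with DOX alone (1.33 ± 0.10). Rises were also found for the Notch effector Hes1 (0.83 ± 0.14), the death-associated kinase Dapk1 (0.58 ± 0.069) and the leucine zipper gene Tsc22d1 (0.45 ± 0.038). Id3, a classical BMP target that holds back helix-loop-helix factors, fell by 1.74 ± 0.21 (20.1 against 67.3 CPM). Jun rose by 0.45 ± 0.13, but was not called without activin B replicate 1 or without DOX replicate 2.

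**Figure D2:**
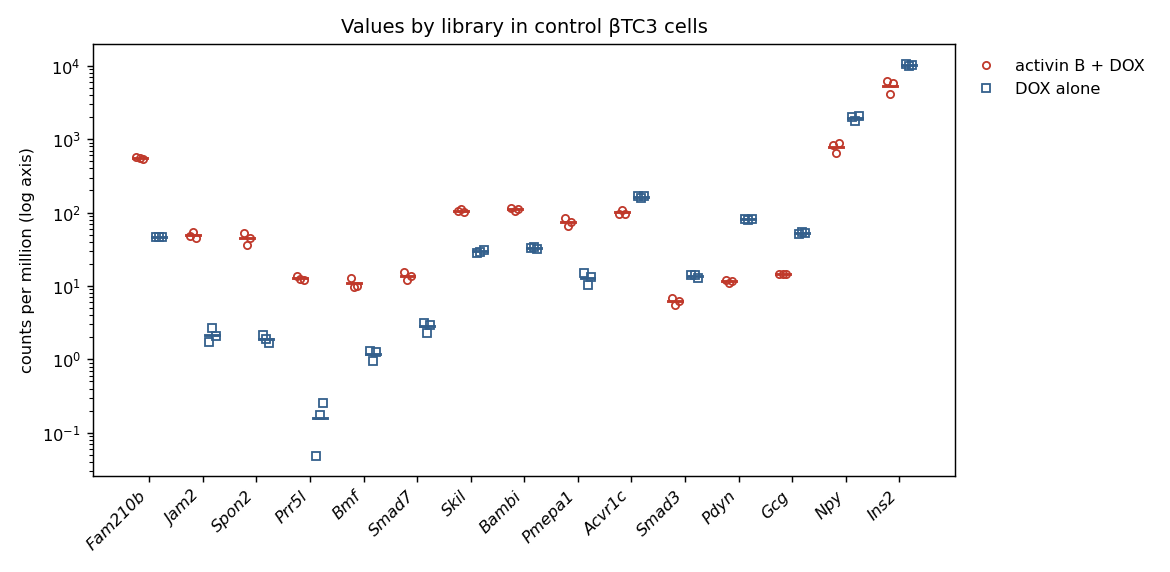
Level of 15 genes in each of the 6 control libraries, in CPM on a log axis; red circles are activin B with DOX, blue squares are DOX alone, and the short lines are the group means. In every gene shown the activin B libraries and the DOX libraries do not overlap, which was a condition for those named by size of change.

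The largest rises by the naming rule fell on genes that were almost silent with DOX alone. The rule asked for a mean of at least 2 CPM, no overlap between groups and a call without activin B replicate 2. Outside it, Nags had a larger fitted rise (log2 fold change 6.715) and is named after its values were seen. Prr5l (chromosome 2, 101714285 to 101883027, minus strand), whose product binds the kinase complex mTORC2, had 13.6, 12.3 and 12.1 CPM with activin B, against 0.0481, 0.174 and 0.254 CPM with DOX alone, a 75.6-fold rise (6.24 ± 0.24). Jam2, a junctional adhesion molecule, had 47.6, 53.8 and 44.96 CPM with activin B, against 1.73, 2.65 and 2.11 CPM with DOX alone (4.47 ± 0.13). Of the list of mTOR complex members and regulators 3 rose and 2 fell of 18 tested (median -0.00299), beside 10.7% and 9.66% of all genes. In that list, beside Prr5l, only the mTOR inhibitor Deptor rose in every setting tried (0.46 ± 0.10). Tmc7, of the transmembrane channel-like family, had 24.1 ± 2.18 CPM with activin B and 1.73 ± 0.43 CPM with DOX alone, and the cadherin gene Cdh17 had 3.97 ± 0.359 CPM with activin B and 0.288 ± 0.00857 CPM with DOX alone. The laminin chain gene Lamb1 (3.06 ± 0.13, 14.3 against 1.72 CPM), the calcium-binding protein gene S100a6 (3.63 ± 0.59, 6.17 against 0.488 CPM), the insulin-like growth factor binding protein relative Igfbpl1 (3.31 ± 0.14, 12.8 against 1.29 CPM) and the metalloprotease gene Adamts6 (3.05 ± 0.15, 10.3 against 1.23 CPM) were of the same kind. Fam210b (chromosome 2, 172345565 to 172355749, plus strand), which encodes a mitochondrial membrane protein, differed from these in its level, with 575, 550.3 and 532 CPM with activin B, against 46.9, 46.7 and 46.4 CPM with DOX alone (3.56 ± 0.05, adjusted p = 6.91e-25). Its 11.8-fold rise had the smallest p of all genes tested.

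The gene with the largest gain in CPM was Acly (chromosome 11, 100476353 to 100528000, minus strand), the ATP citrate lyase that makes acetyl-CoA for lipid synthesis. It had 6041, 5045 and 5941 CPM with activin B, against 3468, 3434 and 3556 CPM with DOX alone (0.70 ± 0.055, adjusted p = 3.23e-10). The gains in CPM were ranked only among called genes whose groups did not overlap, so that the separation of Acly was given in advance. Slc40a1 (chromosome 1, 45908068 to 45926523, minus strand), the iron exporter ferroportin, had 819, 922 and 821 CPM with activin B, against 185, 199 and 189.9 CPM with DOX alone, a 4.46-fold rise. Glul, the glutamine synthetase, had 933, 857 and 893 CPM with activin B, against 364, 366 and 364 CPM with DOX alone (1.29 ± 0.042, adjusted p = 2.26e-17). The lysosomal sulfatase gene Ids (1.03 ± 0.10, 1071 against 526 CPM), the imprinted zinc finger gene Peg3 (0.47 ± 0.092, 2655 against 1914 CPM), the islet glucose-6-phosphatase gene G6pc2 (0.33 ± 0.063, 2342 against 1860 CPM) and the autophagy gene Trp53inp2 (0.82 ± 0.072, 970.1 against 550.1 CPM) were also among the 10 largest gains in CPM.

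By the same rule, the largest falls did not belong to a single pathway. Pdyn (chromosome 2, 129686565 to 129699844, minus strand), the precursor of the opioid peptide dynorphin, had 11.98, 10.97 and 11.7 CPM with activin B, against 81.6, 79.4 and 81.9 CPM with DOX alone, a 7.003-fold fall (log2 fold change -2.81 ± 0.13, adjusted p = 2.71e-14). Slitrk6, a neuronal membrane protein that shapes neurites, had 11.6, 12.8 and 11.5 CPM with activin B, against 52.1, 52.3 and 56.2 CPM with DOX alone (-2.16 ± 0.14). Chl1, a neural adhesion molecule of the L1 family, had 5.23, 6.51 and 5.88 CPM with activin B, against 21.9, 25.3 and 24.7 CPM with DOX alone (-2.03 ± 0.14). In both the groups lay far apart, 4.47-fold and 4.1-fold lower with activin B. Cbs, the enzyme that opens the transsulfuration route from homocysteine to cysteine, had 3.59 ± 0.686 CPM with activin B and 15.4 ± 1.58 CPM with DOX alone (-2.09 ± 0.13), and the next enzyme of this route, Cth, fell as well (-0.72 ± 0.12, 4.38 against 7.23 CPM). Falls of at least 3-fold were also found for the receptor kinase gene Ros1 (-2.13 ± 0.17), the phospholipase Plcb2 (-2.01 ± 0.17), the tachykinin receptor Tacr3 (-1.96 ± 0.18) and the retinol carrier Rbp4 (-1.90 ± 0.093). The complement component gene C1qa, at 4.43 against 24.3 CPM, fell by 2.45 ± 0.16.

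Many hormone and neuropeptide genes fell. Of 25 tested genes 13 fell and 3 rose, beside 9.66% and 10.7% of all genes. The median was -0.70, against -0.00217 over all genes, and 11 and 3 were also called without activin B replicate 2. Ins2 (chromosome 7, 142678656 to 142743381, minus strand) had 6214, 4093 and 5837 CPM with activin B, against 10710, 9905 and 10310 CPM with DOX alone (log2 fold change -0.94 ± 0.17, adjusted p = 1.40e-04). Ins1 (chromosome 19, 52264297 to 52265476, plus strand) had 2420, 1746 and 2160 CPM with activin B, against 3676, 3265 and 3326 CPM with DOX alone (-0.70 ± 0.11, adjusted p = 2.60e-05). In both insulin genes the lowest activin B library was replicate 2, the library low in GC-rich genes. The GC content was 53.6% for Ins2 and 48.2% for Ins1, which lies in the middle bin of genes by GC content (47.8 to 51.4%). The part of GC content in these values was not tested. The 2 genes are close copies and no source used here says how reads that match both were handled, so that the split between them is uncertain. Npy, a neuropeptide that inhibits insulin release, had 841, 641 and 880.1 CPM with activin B, against 2005, 1771 and 2085 CPM with DOX alone (-1.31 ± 0.15, adjusted p = 1.60e-07). The glucagon gene Gcg (chromosome 2, 62474530 to 62483650, minus strand) had 14.4, 14.4 and 14.6 CPM with activin B, against 51.6, 54.9 and 51.98 CPM with DOX alone (-1.87 ± 0.078, adjusted p = 3.01e-15). The incretin gene Gip (-1.37 ± 0.10, 11.3 against 29.3 CPM) and gastrin, Gast (-1.42 ± 0.19, 0.996 against 2.68 CPM), made in fetal islets, also fell.

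Not every hormone fell. Agt, angiotensinogen, had 35.5, 22.8 and 29.9 CPM with activin B, against 2.21, 1.88 and 2.24 CPM with DOX alone (3.81 ± 0.21, adjusted p = 3.68e-13). Among the hormone genes outside the naming rule, picked after their values were seen, Ppy, pancreatic polypeptide, rose by 2.53 ± 0.44 at a level near the detection limit (0.803 against 0.144 CPM), while cholecystokinin, Cck (-1.002 ± 0.20, 9.76 against 19.6 CPM), and galanin, Gal (-0.86 ± 0.15, 7.03 against 12.8 CPM), fell. Iapp, which encodes the amyloid peptide released with insulin, was not called (0.082 ± 0.071, adjusted p = 0.478, 4281 against 4045 CPM).

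The endoplasmic reticulum (ER), where these hormones are folded, gave the most one-sided result of all the lists. Of 29 tested genes for ER chaperones and folding enzymes 23 fell and 0 rose, beside 9.66% and 10.7% of all genes. The median was -0.47, and 22 of the 23 were also called without activin B replicate 2. Of 30 genes for translocation into the ER and ER-associated degradation 19 fell and 1 rose, with a median of -0.29, and 14 of the 19 were also called without that library. The chaperone Hspa5 (BiP), the main binder of unfolded chains, had 821, 956 and 873 CPM with activin B, against 1455, 1513 and 1506 CPM with DOX alone (log2 fold change -0.76 ± 0.061, adjusted p = 6.65e-10). The disulfide isomerase gene Pdia6 had 343, 327 and 374 CPM with activin B, against 789, 868 and 842 CPM with DOX alone (-1.26 ± 0.063, adjusted p = 9.80e-14). Calr, the lectin chaperone calreticulin, had 1336, 1317 and 1398 CPM with activin B, against 1872, 2014 and 2026 CPM with DOX alone (-0.55 ± 0.066, adjusted p = 6.24e-07). None of the 3 genes had an activin B library within the range of the DOX libraries.

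In most cells these genes are switched on when unfolded proteins build up, through the sensors IRE1, ATF6 and PERK. IRE1 splices the mRNA of Xbp1 into a transcription factor, and ATF6 binds with NF-Y to the ER stress element, whose sequence is CCAAT, 9 bases and CCACG. Xbp1 fell by 0.33 ± 0.054, while Ern1, which encodes IRE1, was the single gene of the list to rise (0.31 ± 0.054, 126 against 101 CPM, outside the naming rule). Atf6 fell by 0.17 ± 0.056 (adjusted p = 0.037), a call lost without activin B replicate 2 (adjusted p = 0.062), and Eif2ak3, which encodes PERK, was not called (0.11 ± 0.048, adjusted p = 0.124). Derl3, a channel component of ER-associated degradation, fell by 1.43 ± 0.21 (2.27 against 6.2 CPM), the signal peptidase subunit Spcs2 by 0.40 ± 0.061, and the translocon-associated protein Ssr4 by 0.65 ± 0.094. Of 30 tested genes of the ATF4 response 3 rose and 7 fell, beside 10.7% and 9.66% of all genes. Without activin B replicate 2, 2 and 3 of these were called, beside 9.43% and 7.35% of all genes.

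**Figure D3:**
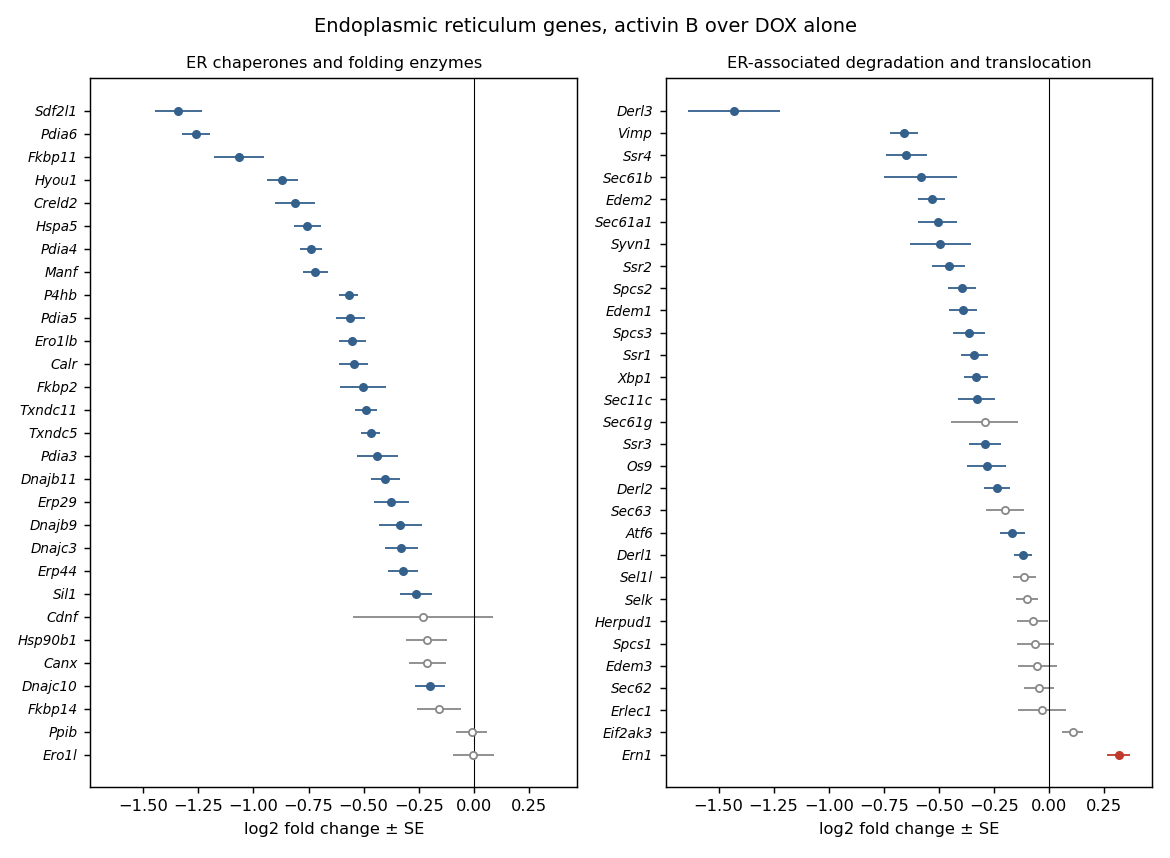
Log2 fold change ± SE (activin B over DOX alone) of each tested gene of 2 ER lists, ordered by size; blue points were called lower, the red point higher, open points were not called. All but 1 of the called genes lie left of 0, from Derl3 at -1.43 to Derl1 near 0.

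The promoters of the ER genes were also searched for the ER stress element. In RefSeq promoter sequences of GRCm38.p6, from 250 bases before to 50 after each start, the ER stress element, in the form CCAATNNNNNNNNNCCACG on either strand, was found in 9 of the 44 genes of the 2 ER lists with a promoter sequence (20.5%). Among all 10459 tested genes with a promoter sequence it was found in 18 (0.172%), and among the 30 ER genes called lower in 7 (23.3%). The elements are shown because they are the known binding sites of ATF6 with NF-Y in ER genes, and they were chosen after the values were seen. Since the element is known from such genes, its higher share in the ER lists than in all genes says nothing about activin B. The CCAAT and CCACG parts are in capitals, and each sequence reads 5′ to 3′ along the strand that carries the element.
Derl3: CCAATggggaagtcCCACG
Pdia6: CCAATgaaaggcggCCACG
Creld2: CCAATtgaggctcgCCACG
Hspa5: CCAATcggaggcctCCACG
Calr: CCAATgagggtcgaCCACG
Syvn1: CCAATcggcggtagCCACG
Dnajc3: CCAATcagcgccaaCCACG
Canx: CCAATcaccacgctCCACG
Hsp90b1, first element: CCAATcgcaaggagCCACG
Hsp90b1, second element: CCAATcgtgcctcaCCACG
The first 7 genes fell by 1.43 ± 0.21, 1.26 ± 0.063, 0.81 ± 0.089, 0.76 ± 0.061, 0.55 ± 0.066, 0.49 ± 0.14 and 0.33 ± 0.075 on the log2 scale. Canx, the lectin chaperone calnexin, and Hsp90b1, the ER member of the HSP90 family, had the element and were not called (-0.21 ± 0.082 and -0.21 ± 0.093, adjusted p = 0.0754 and 0.119). Thus 7 of the 9 genes with the element were called lower, beside 30 of the 44. Without activin B replicate 2, Syvn1 was not called (-0.34, adjusted p = 0.0989) and Hsp90b1 was (-0.32, adjusted p = 0.0232). In Hspa5 (chr2:34771840-34772139, plus strand) the element starts 65 bases before the transcription start, and its whole promoter window, with the element in capitals, is shown as the example of the set.
Hspa5: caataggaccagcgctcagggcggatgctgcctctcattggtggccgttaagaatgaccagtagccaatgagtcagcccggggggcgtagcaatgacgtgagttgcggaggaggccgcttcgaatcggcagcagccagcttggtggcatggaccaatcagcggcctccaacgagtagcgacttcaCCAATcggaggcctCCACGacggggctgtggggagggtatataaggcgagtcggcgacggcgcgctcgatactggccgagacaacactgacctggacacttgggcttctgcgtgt

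The processing and packing of hormones changed with the same sign for some enzymes and not for others. Of 14 prohormone processing genes 5 fell and 1 rose, beside 9.66% and 10.7% of all genes. The rise, of Qpct (0.31 ± 0.10), was not called without activin B replicate 2. Cpe, the carboxypeptidase that trims insulin chains, had 902 ± 13.9 CPM with activin B and 1766 ± 55.9 CPM with DOX alone (-0.97 ± 0.038, adjusted p = 1.03e-15), and the convertase gene Pcsk1 had 265, 283 and 278 CPM with activin B, against 434, 469.6 and 474 CPM with DOX alone (-0.74 ± 0.07, adjusted p = 1.24e-08). The groups did not overlap in either gene, which for Cpe was a condition of its naming. Pcsk2, the second insulin convertase, was not called (0.073 ± 0.058, adjusted p = 0.431). Of the granins and granule membrane proteins 4 rose and 8 fell of 24 tested, and members of the granin family itself went opposite ways. Scg2 had 742, 927 and 826 CPM with activin B, against 1655, 1987 and 1840 CPM with DOX alone (-1.14 ± 0.079), whereas Scg3 had 779, 941 and 847 CPM with activin B, against 373, 411 and 396 CPM with DOX alone (1.12 ± 0.086). Chga, chromogranin A, rose with 4286, 3286 and 4206 CPM with activin B, against 2950, 2530 and 2861 CPM with DOX alone (0.50 ± 0.11, adjusted p = 0.00209), and its lowest activin B library was again replicate 2.

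Of 29 tested exocytosis genes 5 rose and 2 fell (median -0.0377), beside 10.7% and 9.66% of all genes, and all 7 calls were also made without activin B replicate 2, where 6 rose and 2 fell. Among those that rose were the syntaxin gene Stx3 (0.72 ± 0.06), complexin 2, Cplx2 (0.71 ± 0.08, 535 against 327 CPM) and the calcium sensor Syt2 (0.45 ± 0.049), and the SNARE gene Snap25 fell (-0.50 ± 0.058, 73.5 against 104 CPM). Of 8 neuronal markers, which beta cells partly share, 4 fell and 1 rose. The neurofilament gene Nefm was lower with 561, 626 and 672 CPM with activin B, against 1096, 1152 and 1280 CPM with DOX alone (-0.92 ± 0.13, adjusted p = 8.43e-06). The tubulin gene Tubb3 was the one that rose, with 425, 244 and 365 CPM with activin B, against 272, 209.9 and 240.4 CPM with DOX alone (0.52 ± 0.18, adjusted p = 0.047), and its groups overlapped. The mRNAs of the enzymes for both steps of serotonin synthesis rose, while enzyme activity and serotonin were not measured. Tph1, the tryptophan hydroxylase, had 6.72, 6.6 and 7.12 CPM with activin B, against 0.673, 0.871 and 0.549 CPM with DOX alone (3.26 ± 0.17), Ddc, the decarboxylase that completes serotonin, had 34.98, 31.9 and 31.4 CPM with activin B, against 9.19, 9.37 and 7.52 CPM with DOX alone (1.91 ± 0.086), and Qdpr, which regenerates the pterin cofactor of TPH1, rose by 0.52 ± 0.051 (496 against 345 CPM). Maob, which degrades amines, fell by 0.59 ± 0.058 (404 against 609 CPM), and Slc18a1, a vesicular amine transporter, fell by 0.69 ± 0.075.

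Of 25 tested beta cell transcription factors 4 rose and 5 fell (median -0.00673), beside 10.7% and 9.66% of all genes, and 3 and 3 of these were also called without activin B replicate 2. Pdx1, which drives insulin genes, had 256, 246 and 246 CPM with activin B, against 355, 345 and 343 CPM with DOX alone (-0.48 ± 0.052, adjusted p = 1.11e-07), and the secretory cell factor Bhlha15 (MIST1) fell by 0.92 ± 0.11 (7.79 against 14.8 CPM). Myt1 (0.81 ± 0.055, 520.5 against 297 CPM) and St18 (0.54 ± 0.09, 330.2 against 227 CPM), which are related zinc finger factors, rose. Mafa, a driver of insulin genes in mature beta cells, named after its values were seen, had 7.82, 2.57 and 6.23 CPM with activin B, against 24.96, 12.7 and 18.7 CPM with DOX alone. It fell by 1.74 ± 0.53, and was not called without activin B replicate 2 (-1.41, adjusted p = 0.103). Of 11 tested progenitor and islet lineage factors 4 rose and 2 fell. Pax4, which directs precursors toward the beta cell fate, had 80.2, 66.1 and 76.9 CPM with activin B, against 10, 10.6 and 9.59 CPM with DOX alone (2.88 ± 0.082, adjusted p = 2.34e-18). Sox4 had 78.05, 81.5 and 73.6 CPM with activin B, against 32.3, 28.5 and 28.6 CPM with DOX alone (1.38 ± 0.067), and Prox1 rose by 0.76 ± 0.083. The homeobox gene Gbx2 (-2.21 ± 0.20, 1.03 against 4.8 CPM) and the ETS factor Etv1 (-0.63 ± 0.12, 158 against 244 CPM) fell.

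Receptors and channels that set islet cell excitability changed in both directions. Of 30 tested islet G protein-coupled receptors 12 rose and 8 fell, beside 10.7% and 9.66% of all genes. Of these, 12 and 5 were also called without activin B replicate 2, beside 9.43% and 7.35% of all genes. The orphan receptor Gprc5c had 119.7, 88.7 and 105 CPM with activin B, against 28.4, 25.02 and 24.9 CPM with DOX alone (2.01 ± 0.093), and the galanin receptor Galr1 had 64.96, 69.1 and 66.5 CPM with activin B, against 32.9, 34.1 and 30.3 CPM with DOX alone (1.04 ± 0.067). The GABA-B receptor gene Gabbr2 rose by 0.58 ± 0.069. Sstr5, a somatostatin receptor, had 17.4, 10.03 and 14.1 CPM with activin B, against 34.2, 30.4 and 30.98 CPM with DOX alone (-1.20 ± 0.13), and the VIP receptor Vipr2 (-1.46 ± 0.16) and the muscarinic receptor Chrm3 (-0.98 ± 0.13, 6.7 against 13.3 CPM), which raises insulin release, fell. The groups did not overlap in Gprc5c, Galr1 or Sstr5.

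Of 17 voltage-gated calcium channel genes 5 rose and 2 fell, beside 10.7% and 9.66% of all genes. Cacna1d, an L-type channel of beta cells, had 80.2, 82.01 and 76.3 CPM with activin B, against 55.3, 51.5 and 52.2 CPM with DOX alone (0.58 ± 0.059), while its relative Cacna1c had 75.4, 66.03 and 72.4 CPM with activin B, against 103, 91.5 and 98.1 CPM with DOX alone (-0.45 ± 0.091). These L-type genes thus moved in opposite directions. The T-type gene Cacna1g had 3.41 ± 0.284 CPM with activin B and 0.627 ± 0.12 CPM with DOX alone (2.43 ± 0.19). Of 31 potassium channel genes 7 rose and 8 fell, beside the same shares of all genes. Without activin B replicate 2, 5 and 4 of these were also called. Abcc8, the sulfonylurea receptor of the ATP-sensitive channel, fell by 0.56 ± 0.11 (332 against 488 CPM). The inward rectifier Kcnj6 (1.47 ± 0.18, 3.53 against 1.27 CPM) and the leak channel Kcnk1 (0.94 ± 0.16, 3.11 against 1.62 CPM) rose. Trpm5, a calcium-activated cation channel of beta cells, fell by 0.54 ± 0.059 (48.8 against 70.99 CPM). Among calcium release and store proteins the plasma membrane pump Atp2b4 rose by 1.06 ± 0.094 (11.1 against 5.32 CPM).

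Metabolic genes gave single strong changes. In glucose sensing and metabolism 4 rose and 4 fell of 31 tested (median -0.0123), beside 10.7% and 9.66% of all genes. Of these, 4 and 2 were also called without activin B replicate 2. Slc16a1, the monocarboxylate transporter MCT1, which beta cells normally keep low, had 78.3, 80.6 and 78.98 CPM with activin B, against 27.7, 29.5 and 30.1 CPM with DOX alone (1.45 ± 0.053, adjusted p = 3.15e-16). Slc2a2, the glucose transporter GLUT2, fell by 1.54 ± 0.19 at a low level (1.31 against 3.8 CPM), and the hexokinase Hk1 fell by 0.83 ± 0.10 (45.04 against 80.04 CPM). Of the fatty acid genes 7 rose and 5 fell of 34 tested, with 7 and 1 of them also called without activin B replicate 2. Beside Acly, the lipase Mgll (2.87 ± 0.34, 1.59 against 0.207 CPM), lipoprotein lipase, Lpl (0.69 ± 0.077, 98.5 against 61.1 CPM), the carnitine palmitoyltransferase Cpt1a (0.68 ± 0.047, 90.3 against 56.6 CPM) and the lipid droplet gene Plin2 (0.47 ± 0.068) rose, and the elongase Elovl6 fell (-0.63 ± 0.077). The cholesterol exporter Abca1 had 246, 239 and 225 CPM with activin B, against 84.4, 80.2 and 80.2 CPM with DOX alone (1.54 ± 0.072), while the called synthesis genes of that list lay between -0.64 (Tm7sf2) and 0.27 (Nsdhl). In amino acid handling the glutamate transporter Slc1a2 rose by 1.94 ± 0.12 (22.6 against 5.87 CPM) and the glutamine transporter Slc38a5 had 2105, 1480 and 1949 CPM with activin B, against 2938, 2669 and 2872 CPM with DOX alone (-0.62 ± 0.10). The ornithine decarboxylase Odc1 rose (0.77 ± 0.059, 224 against 131 CPM), and the arginine transporter Slc7a2 fell (-0.84 ± 0.072, 246 against 439 CPM).

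Genes of the NRF2 and metallothionein stress list changed in both directions. Of 32 tested 7 rose and 5 fell (median -0.0689), beside 10.7% and 9.66% of all genes. Of these, 6 and 2 were also called without activin B replicate 2. The quinone reductase Nqo1 had 161, 164 and 166 CPM with activin B, against 78.9, 87.3 and 87.3 CPM with DOX alone (0.96 ± 0.062, adjusted p = 1.33e-11), malic enzyme, Me1, had 181 ± 15.8 CPM with activin B and 90.6 ± 2.55 CPM with DOX alone (1 ± 0.087), and the glutathione synthesis gene Gclm had 289.7 ± 19.98 CPM with activin B and 185 ± 3.53 CPM with DOX alone (0.65 ± 0.073). Nfe2l2, which encodes NRF2, rose by 0.47 ± 0.062. The glutathione peroxidase Gpx2 fell by 1.16 ± 0.13 (3.37 against 7.53 CPM). Papss2, which makes the sulfate donor for sulfation, was among the largest losses in CPM, with 758, 747 and 741 CPM with activin B, against 1420, 1455 and 1378 CPM with DOX alone (-0.92 ± 0.053).

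Cell death and cell cycle genes changed in both directions, beside 10.7% of all genes called higher and 9.66% called lower. Of 19 BCL2 family genes 2 rose and 1 fell. Bmf accounted for the large change, while Bid (0.33 ± 0.11) and Pmaip1 (-1.03 ± 0.34) lost their calls in 7 of the 18 other settings each. Of 24 death receptor and caspase genes 3 rose and 1 fell, with rises of the TWEAK receptor Tnfrsf12a (0.90 ± 0.11, 27.9 against 14.97 CPM) and a fall of the death receptor Tnfrsf21 (-0.9973 ± 0.086, 22.9 against 45.9 CPM). Of 21 tested p53 targets 4 rose and 2 fell, with Trp53inp1 (1.20 ± 0.11, 216 against 93.96 CPM) and the antiproliferative gene Btg2 (1.02 ± 0.055, 68.5 against 33.8 CPM) higher and Gadd45a (-1.12 ± 0.082, 36.2 against 78.5 CPM) and Perp (-1.10 ± 0.079, 14.4 against 30.9 CPM) lower. Of 36 G1/S and replication genes 6 fell and 0 rose, but 3 of the 6 were called without activin B replicate 2, and E2f2 (-0.44 ± 0.067) alone was called in every setting. Of 32 mitotic genes 2 rose and 1 fell, within -0.20 and 0.21 on the log2 scale, and 1 of the 3 (Kif2c) was called without activin B replicate 2. Cyclin D2, Ccnd2 (-1.21 ± 0.21, 1.13 against 2.62 CPM), fell.

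Adhesion and matrix genes included several of the strongest rises. Of 41 matrix and integrin genes 7 rose and 5 fell (median -0.0577), beside 10.7% and 9.66% of all genes. Among the rises, beside Lamb1, were Lama1 (0.97 ± 0.12, 10.2 against 5.19 CPM), which encodes a laminin chain, and the laminin receptor subunit Itga6 (0.81 ± 0.063, 122 against 69.5 CPM). Itgav, an integrin subunit that can activate latent TGF-β, rose by 0.63 ± 0.08. S100a4 and S100a6, neighbours on chromosome 3, both rose (1.94 ± 0.27 and 3.63 ± 0.59). Of 46 axon guidance genes 9 fell and 7 rose, among them the Slit receptors Robo2 (-0.96 ± 0.074, 98.3 against 191 CPM) and Robo1 (-0.54 ± 0.08) and the ephrin receptor Epha4 (-1.25 ± 0.10) lower, and Epha5 (1.53 ± 0.12), the semaphorin Sema6d (0.77 ± 0.073) and the neuropilin Nrp2 (0.88 ± 0.10) higher. The receptor kinase gene Ntrk2 (TRKB) had 56.1, 52.2 and 53.8 CPM with activin B, against 165, 165 and 159 CPM with DOX alone (-1.59 ± 0.073), whereas its relative Ntrk3 rose by 0.54 ± 0.087.

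Components of other signalling pathways changed as well, beside 10.7% of all genes called higher and 9.66% called lower. Of 28 Notch genes 8 rose and 3 fell, with the ligands Dll4 (2.43 ± 0.16, 5.95 against 1.1 CPM) higher and Dll1 (-0.92 ± 0.16, 1.83 against 3.5 CPM) lower and the modifier of Notch Lfng lower (-1.51 ± 0.18). Of 28 Wnt genes 9 rose and 5 fell (7 and 3 of these also without activin B replicate 2), with the ligands Wnt3 (2.47 ± 0.27, 2.78 against 0.495 CPM) and Wnt9a (1.14 ± 0.12, 8.57 against 3.9 CPM) higher and the receptor Fzd7 lower (-1.48 ± 0.11, 5.58 against 15.6 CPM). Of 20 MAPK phosphatase and Sprouty genes 5 rose and 1 fell, led by Dusp16 (0.79 ± 0.087). Of 39 nuclear receptor and clock genes 9 rose and 5 fell. Both deiodinase genes of that list, which switch thyroid hormone on, rose, Dio1 with 84.8, 79.8 and 86.6 CPM with activin B, against 21.6, 20.9 and 22.6 CPM with DOX alone (1.95 ± 0.087) and Dio2 with 3.66 ± 0.221 CPM with activin B and 0.448 ± 0.157 CPM with DOX alone (2.98 ± 0.22). The nuclear thyroid hormone receptor Thrb fell by 0.74 ± 0.11 (6.2 against 10.4 CPM). The clock repressor Bhlhe40 rose by 1.05 ± 0.079 (48.7 against 23.5 CPM). Of 23 imprinted genes 8 fell and 5 rose. Nnat, a small membrane protein of the ER, had 977, 752 and 904 CPM with activin B, against 1783, 1700 and 1672 CPM with DOX alone (-0.97 ± 0.10), the growth factor Igf2 had 4529, 3744 and 4179 CPM with activin B, against 5768, 5144 and 5358 CPM with DOX alone (-0.39 ± 0.072), and the adaptor Grb10, which dampens insulin signalling, rose by 2.05 ± 0.18 (3.88 against 0.947 CPM). Gng12, a G protein subunit, had 479.5, 554 and 481 CPM with activin B, against 1485, 1527 and 1477 CPM with DOX alone (-1.57 ± 0.083).

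**Figure D4:**
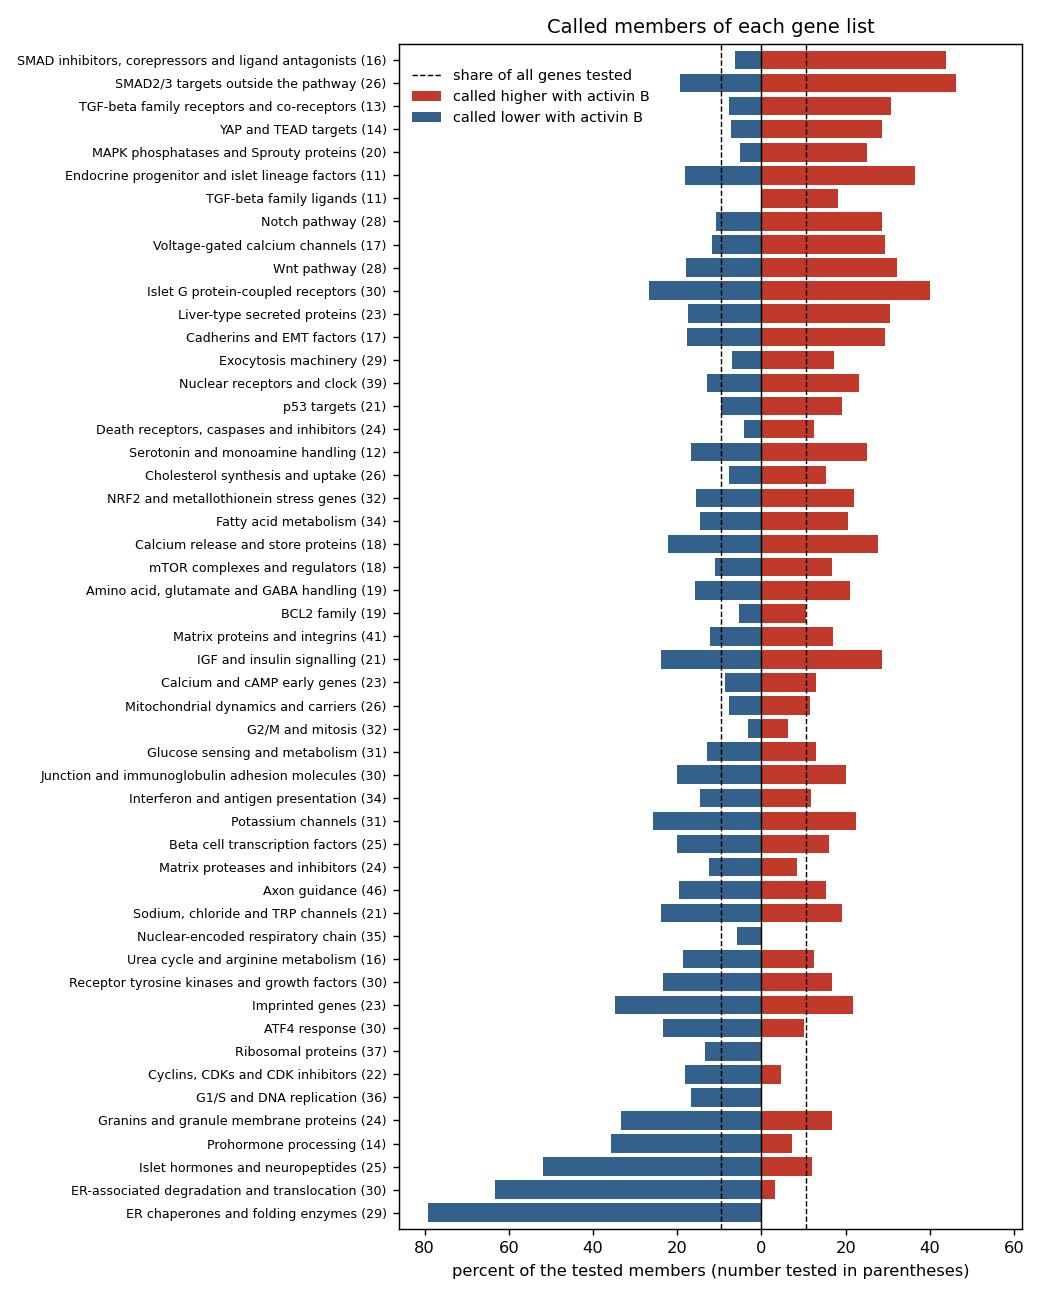
Share of the tested members of each gene list called higher (red, to the right) and lower (blue, to the left) with activin B, for all but 1 of the lists with at least 10 tested members, ordered by the difference; the dashed lines mark the shares of all genes tested, 10.7% higher and 9.66% lower. The ER and hormone lists lie at the lower end, the SMAD inhibitors and SMAD2/3 targets at the upper end.

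In the housekeeping lists no gene was called higher, and the medians lay somewhat under that of all genes. Of 37 ribosomal protein genes 0 rose and 5 fell (median -0.141, and -0.107 without activin B replicate 2), beside 10.7% and 9.66% of all genes. Of 35 nuclear-encoded respiratory chain genes 0 rose and 2 fell, Atp5a1 and Atp5b (median -0.0711, and -0.0821 without that library). Over all genes tested the medians were -0.00217 and -0.00512. None of these 7 calls was made without activin B replicate 2. The ribosomal genes called were Rpsa, Rplp0, Rpl15, Rps19 and Rpl14, with log2 fold changes of -0.51, -0.43, -0.37, -0.31 and -0.24, and their reads may be split with pseudogene copies. By annotation class, 1548 of 13238 protein-coding genes tested rose and 1410 fell, and of 282 long intergenic noncoding RNA genes 29 rose and 24 fell. Of 1012 processed pseudogenes 21 rose and 24 fell.

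SMAD3 and SMAD4 bind short DNA motifs that hold CAGAC. On either strand of the 300-base promoter windows this motif was present in 65.9% of 214 genes called at least 2-fold higher, in 50.9% of 165 genes called at least 2-fold lower, and in 52.4% of all 10459. The longer CAGACA was present in 30.4%, 18.2% and 18.8% of the same sets. The palindrome GTCTAGAC was in none of the promoters of either changed set and in 0.277% of all. The GC-rich GGCGCC, which SMADs also bind, was present in 18.7%, 17.6% and 24.8% of the same sets, a lower share in both changed sets than in all. Of the other motifs searched, the AP-1 motif TGACTCA was present in 5.61%, 5.45% and 4.35%, the CREB motif TGACGTCA in 4.21%, 3.03% and 3.65%, and the E-box CACGTG in 7.94%, 10.3% and 11.5%. The core motif is therefore common in any promoter, and these shares carry no test. Bmf, the target with the largest rise, has 3 annotated starts, and 1 of the windows (chr2:118544538-118544837, minus strand) holds the motif 3 times. It is shown 5′ to 3′ along the gene, with the motif in capitals as its reverse complement GTCTG, starting 247, 46 and 40 bases before the start.
Bmf: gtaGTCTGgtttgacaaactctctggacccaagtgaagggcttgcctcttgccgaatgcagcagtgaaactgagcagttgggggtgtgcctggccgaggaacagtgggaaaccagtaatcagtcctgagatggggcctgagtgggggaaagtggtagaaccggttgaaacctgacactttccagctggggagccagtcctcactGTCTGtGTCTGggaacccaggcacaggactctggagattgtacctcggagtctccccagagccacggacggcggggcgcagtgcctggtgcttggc
The other Bmf windows hold no match, which says only that these letters are not there.

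Strongly changed genes were sometimes neighbours. Of 9137 pairs of adjacent protein-coding genes tested that lay within 50000 bases, 25 held genes that were both called and changed at least 2-fold, where 491 of the 13238 protein-coding genes tested were so changed, and in 24 of these both moved the same way, 15 up and 9 down. Examples on opposite strands were Rbp4 and the photoreceptor phosphodiesterase Pde6c on chromosome 19 (-1.90 ± 0.093 and -1.998 ± 0.38) and Gng12 with Gadd45a on chromosome 6 (-1.57 ± 0.083 and -1.12 ± 0.082). On one strand Ddc and Grb10 on chromosome 11 rose (1.91 ± 0.086 and 2.05 ± 0.18), and S100a4 and S100a6 rose. Tgfb1 lies 444 bases from B9d2, which rose as well (1.11 ± 0.20). On the other side of B9d2, 5614 bases away, Tmem91 rose more (log2 fold change 5.82) and is named after its values were seen. The pair that moved in opposite directions was Slc1a2, higher, and Cd44, lower (-1.28 ± 0.43), and Cd44 was not called without activin B replicate 2 (adjusted p = 0.09). Pairs with overlapping or abutting ends may share reads, since no source used here gives the strand setting of the counting.

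The low reading of GC-rich genes in activin B replicate 2 touched the balance of the calls. With all libraries the median log2 fold change was 0.0644 in the lowest of 5 equal bins of genes by GC content and -0.134 in the highest bin, and without that library it was -0.024 and -0.0211. Of the genes in the highest bin 6.57% were called higher and 9.74% lower with all libraries, and 7.99% higher and 4.89% lower without it. Across genes the Spearman correlation of the change with GC content was -0.229, and 0.0326 without that library.

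**Figure D5:**
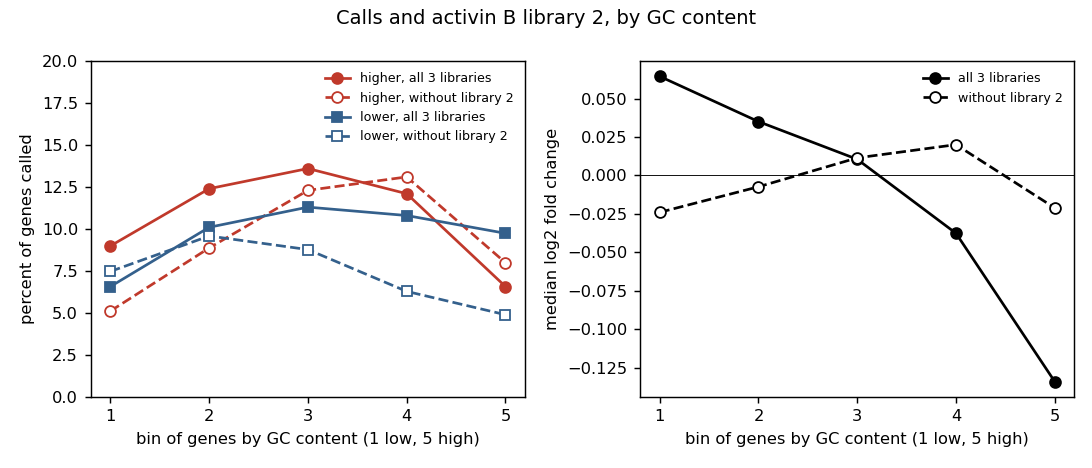
Left, percent of genes called higher (red) and lower (blue) in each of 5 bins of genes by GC content, with all 3 activin B libraries (filled) and without activin B replicate 2 (open); right, the median log2 fold change in each bin. The downward slope of the median from 0.0644 to -0.134 flattens without that library.

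The response was next set against that of the ALK7 and sh1/2 lines, by testing the difference between responses, since all libraries of these lines were in batch 1. Against the line labelled ALK7, 4 of 15627 genes differed (0.0256%; 1595 at an unadjusted p under 0.05, and 33 genes with DESeq2). They were named after their values were seen. Marcksl1, whose product binds membranes and actin, rose by 0.32 ± 0.10 in control cells, less than in the ALK7 line (control response minus ALK7-line response -0.9996, adjusted p = 0.00224). The rises of the progenitor factor Sox4 (1.38 ± 0.067) and the dynamin gene Dnm3 (0.94 ± 0.067) were likewise smaller in control cells (differences -0.60 and -0.54, adjusted p = 0.00995 and 0.0313). The calcium sensor gene Scgn, which fell by 0.43 ± 0.051 in control cells, fell less there than in the ALK7 line (0.42, adjusted p = 0.0294). Without control activin B replicate 2, Marcksl1 and Sox4 were still called (adjusted p = 0.0105 each), and Dnm3 (-0.55, adjusted p = 0.0753) and Scgn (0.38, adjusted p = 0.107) were not. None of the 16 tested core genes of the pathway and its targets differed from the ALK7 line in this test. For Smad7 the difference was -0.62 (adjusted p = 0.263), for Bmf -0.48 (adjusted p = 0.482) and for Ins2 -0.25 (adjusted p = 0.649). A p that misses the threshold does not show equal responses.

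Against the line with the hairpin pair sh1/2, 2768 genes differed (17.7%), but this count was 78 without sh1/2 DOX replicates 1 and 3, which were also low in GC-rich genes. That fit leaves 1 library with DOX alone in the sh1/2 line, replicate 2, which is assumed to vary like the other groups and was itself high in GC-rich genes (Spearman correlation 0.696). Of the core genes, Bmf rose more in control cells, by 1.53 on the log2 scale (adjusted p = 0.000194), Skil by 0.71 (adjusted p = 0.00029) and Bambi by 0.44 (adjusted p = 0.00293), and Pdyn fell more, by -1.07 (adjusted p = 0.000986). Against that single library the 4 differences were 1.37, 0.45, 0.54 and -0.96 (adjusted p = 0.0135, 0.0168, 0.00693 and 0.0409), which is no replicate check of the sh1/2 line. The difference for Bambi was not called with the GC correction (0.24, adjusted p = 0.265).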

How the data were processed

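The members were all control-construct libraries, and the comparisons, gene lists and naming rule were chosen with earlier results of these data known. RNA had been taken up in Trizol and made into stranded poly(A) libraries, per the labels' protocols. Tools and build, per the submitters' processing notes, were bcl2fastq 2.17, cutadapt 1.4.2, HISAT2 (version not given in the sources used here), mm10 and featureCounts 1.4.4. Neither the strand setting nor the treatment of multiply matching reads in the counting was given in the sources used here. The authors deposited integer counts per gene for 39017 genes, and a normalized table that was not used here.

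From the counts, genes were filtered with filterByExpr (15627 kept), normalized with TMM and fitted in edgeR 4.0.16 (R 4.3.3) with 10 group means over all 30 libraries. Contrasts were tested with the quasi-likelihood F test and Benjamini-Hochberg adjustment at 0.05. The steps were tested on simulated data. Replicate pairs differed by more than counting error (chi-square per degree of freedom 7.81 to 44.5). Named genes were 17 core genes and up to 6 called members per list. To these were added the 15 per direction with the largest log2 fold change and the 10 per direction with the largest difference in CPM. The 15 had a mean of at least 2 CPM, no overlap between groups, a call without activin B replicate 2 and a regular symbol. The 10 were called and had no overlap between groups. Atf6, B9d2, Bmper, Canx, Cd44, Cftr, Creld2, Dnajc3, Eif2ak3, Ern1, Hsp90b1, Iapp, Krt7, Nefm, Pcsk2, Pde6c, Syvn1 and Tubb3 fall outside this rule and were named after their values were seen, as were those marked so in the text. The 54 lists held 1579 genes, of which 1299 were tested, and they were described by counts and medians alone. The results of 1 list and of some genes are not reported here. GC content came from the longest GENCODE vM21 transcript, for 98.9% of genes. Alternatives were other samples, tools (DESeq2 1.42.0), normalizations and filters, a GC correction, a replicate block and leaving out each library. Positions are those of GENCODE vM21 on mm10, and promoter sequences are from RefSeq (GRCm38.p6, the same build).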

Additional observations from a re-analysis of the deposited data

Results flagged for a closer look

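For 10 core genes the control response differed from that of the sh1/2 line by the test of the difference itself (edgeR quasi-likelihood test, Benjamini-Hochberg adjustment). The differences, as control response minus sh1/2-line response on the log2 scale, were 1.53 for Bmf (adjusted p = 0.000194), 0.71 for Skil (adjusted p = 0.00029), 0.59 for Smad7 (adjusted p = 0.0313), 0.56 for Gcg (adjusted p = 0.00311), 0.44 for Bambi (adjusted p = 0.00293) and 0.43 for Acvr2a (adjusted p = 0.0357). They were -1.07 for Pdyn (adjusted p = 0.000986), -0.80 for Ins2 (adjusted p = 0.0345), -0.50 for Smad3 (adjusted p = 0.0199) and -0.46 for Ins1 (adjusted p = 0.0434).

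The pathway inhibitors Smad7, Skil and Bambi and the proapoptotic Bmf thus rose more in control cells than in cells with the hairpin pair, and Pdyn, Smad3 and both insulin genes fell more. Gcg fell less in control cells. Acvr2a was not called in control cells themselves. Without sh1/2 DOX replicates 1 and 3, the libraries low in GC-rich genes, 1 library of that group is left, replicate 2 (GC correlation 0.696), which is assumed to vary like the other groups. In that fit the calls for Acvr2a (0.091, adjusted p = 0.887), Smad7 (0.32, adjusted p = 0.825), Gcg (0.50, adjusted p = 0.0996), Ins1 (-0.27, adjusted p = 0.84), Ins2 (-0.33, adjusted p = 0.84) and Smad3 (-0.63, adjusted p = 0.057) were lost. With the GC correction Smad7 was at 1.05 (adjusted p = 0.00166), Bmf at 1.74 (adjusted p = 2.52e-05), Smad3 at -0.31 (adjusted p = 0.132) and Bambi at 0.24 (adjusted p = 0.265). The part of GC content in these differences was not tested beyond these values. The hairpin lines carry another plasmid backbone (PB31) than the control line (PB33), so that the plasmid and the hairpins cannot be told apart.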

How the results depend on the processing

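Of the 300 named genes called, 239 were called under each of the 18 other settings and 0 changed sign. Many of them were named for a small p or for a call without activin B replicate 2, which is 1 of these settings. Their stability was thus partly given in advance. Of all 3180 calls, 832 higher and 677 lower held in every setting. Without activin B replicate 2, 2373 of the 3180 calls were made again in the same direction. Fitting the 6 control libraries alone gave 1734 calls, 927 higher and 807 lower, of which 1685 were among the 3180. DESeq2 gave 3077 calls, and leaving out single control libraries gave 2432 to 3031. Against the ALK7 line the 4 calls became 2 with the 24 batch 1 libraries, 2 without the low-count filter, 9 with upper quartile normalization, 12 without sh1/2 DOX replicates 1 and 3 (which leaves 1 library in that group), 26 with the GC correction, 15 with that correction and without activin B replicate 2, and 33 with DESeq2. Leaving out single libraries gave 1 to 21 there, with 21 without control activin B replicate 1, 1 or 2 without control activin B replicate 2, control DOX replicates 1 or 3 or any ALK7-line library, and no move past 1.5 times for the others. Against the sh1/2 line the 2768 calls became 78 without sh1/2 DOX replicates 1 and 3, 926 with the GC correction, where 182 of the 2768 changed sign, 413 with that correction and without control activin B replicate 2, and 989 without the low-count filter. Leaving out single libraries gave 289 to 6983 there. The count was 5111 without control activin B replicate 1, 324 without its replicate 2, 411 and 687 without control DOX replicates 1 and 3, 507 and 528 without sh1/2 activin B replicates 2 and 3, and 289, 6983 and 303 without sh1/2 DOX replicates 1, 2 and 3. The cause of these moves was not tested.

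Correlations of the deviations of same-numbered control libraries were 0.309, 0.258 and 0.0794, so the numbers were not shown to pair the wells, although each library correlated best with its own number. With a replicate block within each line 4314 genes were called (2072 higher, 2242 lower), and 5341 (2730 higher, 2611 lower) with the block and the GC correction. The block gave 205 calls against the ALK7 line (443 with the GC correction) and 5956 against the sh1/2 line. The 2 settings that join leaving out activin B replicate 2 with the fit of the control libraries alone or with the GC correction were chosen after seeing the data. With 3 wells of 1 line per group the calls speak of these wells.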

Other observations

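Several genes known from the liver were among those that changed in control cells. Of 23 tested genes for liver-type secreted proteins 7 rose and 4 fell (median -0.198), beside 10.7% and 9.66% of all genes. The plasma protein genes Cpn1 (log2 fold change -2.28) and Rbp4 (-1.90) fell. Serpina1c, a mouse gene of the α1-antitrypsin family, had 37.7, 35.4 and 35.6 CPM with activin B, against 8.51, 6.72 and 7.57 CPM with DOX alone (2.26 ± 0.15, adjusted p = 1.17e-11). Serpina1a (0.99 ± 0.12, 5.8 against 2.92 CPM) and albumin, Alb (1.001 ± 0.13, 7.57 against 3.76 CPM), rose at lower levels. The Serpina1 genes are near-identical copies, and their split of reads is uncertain.

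Growth factor signalling changed in both directions. Of 21 insulin and IGF signalling genes 6 rose and 5 fell, beside 10.7% and 9.66% of all genes. Of these, 5 and 3 were also called without activin B replicate 2. Pik3r3, a regulatory subunit of the pathway's lipid kinase, rose by 0.38 ± 0.081 (186 against 144 CPM). Of 14 YAP and TEAD targets 4 rose and 1 fell, beside the same shares of all genes. Amotl2, which binds YAP, had 7.29 ± 1.002 CPM with activin B and 2.15 ± 0.535 CPM with DOX alone (1.78 ± 0.16), and Tead1, a DNA-binding partner of YAP, had 152 ± 5.44 CPM with activin B and 90.9 ± 1.47 CPM with DOX alone (0.74 ± 0.086). Of 34 interferon and antigen presentation genes 4 rose and 5 fell (median 0.0103), beside 10.7% and 9.66% of all genes. Usp18, which dampens interferon signalling, was lower (-0.67 ± 0.05, 39.4 against 62.7 CPM) and Mx1, an antiviral GTPase, higher (1.13 ± 0.26, 2.4 against 1.1 CPM).

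Some of the largest fitted changes rested on single libraries, mostly in processed pseudogenes, and are named after their values were seen. Gm7866 had 137, 0 and 132 CPM with activin B, against 0.0481, 0.0348 and 0.0423 CPM with DOX alone (log2 fold change 10.95 ± 3.22, adjusted p = 0.0166). Pgk1-rs7 had 0.378, 0.557 and 0.248 CPM with activin B, against 48, 0.557 and 0.338 CPM with DOX alone (-5.37 ± 1.10). Rpsa-ps2 had 0, 14.1 and 0 CPM with activin B, against 0.0481, 0 and 0.0423 CPM with DOX alone (7.16 ± 2.41). In these the groups overlapped or 1 to 2 libraries carried all of the signal, and reads may be shared with the parent genes.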
